A study of Mus musculus with 6 samples.

Results

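MIN6 cells, β-cells of a mouse insulinoma kept as a line, were the source of the 6 libraries of messenger RNA described here. The account is about the replicate 3 libraries, 2 of the 6, set against the replicate 1 and 2 libraries. These 2 libraries were selected on the expression values of the 6 libraries, after both had been seen to stand apart, so every difference between replicate 3 and replicates 1 and 2 is given as a description and has no test. The study examined what activation of the endogenous *Thada* gene does to β-cells, and it sequenced 3 control and 3 *Thada*-activated libraries on the BGISEQ-500 platform. For the *Thada*-activated line, cells received a lentivirus for dCas9-VP64, under puromycin selection, and then a lentivirus for an sgRNA against the *Thada* promoter together with MS2-P65-HSF1, under G418 selection. Control cells received lentiviruses for dCas9 and for an sgRNA that has no target, and their selection is not described. No cloning step is described for either line. The labels do not say whether the replicates were separate cultures, dates or preparations. The p-values below therefore measure only the spread between these samples.

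Library totals were similar. Control replicates 1, 2 and 3 held 17272834, 17166511 and 17689611 estimated counts. The totals of *Thada*-activated replicates 1, 2 and 3 were 17727004, 17385036 and 17224631. Levels are given as CPM, the counts scaled to a common library size with the TMM factor, and always in the order of replicates 1, 2 and 3. A gene with 3 counts or fewer in a library was taken as being at the floor, which covers counting error only and lay between 0.169 and 0.175 CPM. Of the 16640 genes in the table, 12516 had enough counts to be tested. All libraries had the profile of β-cells. *Ins2* took 6.37%, 5.65% and 10.2% of all counts in control libraries and 6.44%, 6.29% and 8.36% in activated libraries, and 9 of 10 β-cell markers were tested. The exception was *Slc2a2*, the gene of the glucose transporter GLUT2, which had between 1 and 9 counts per library.

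As background, pancreatic β-cells couple the breakdown of glucose to the closure of ATP-sensitive potassium channels, calcium entry and the release of insulin granules. Glucose also reaches their genes, through the paired factors ChREBP or MondoA with MLX, and the arrestin-domain gene *Txnip* is the best known target of this pathway. Growth factors act through the kinase ERK, which raises the PEA3-family factors ETV1, ETV4 and ETV5 together with the phosphatases and inhibitors that limit the same pathway.

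A gene is called set apart here when the replicate 3 library lay outside the range of replicates 1 and 2 and differed from their mean by more than 1.5-fold, in the same direction, within control and within activated cells. In all, 1558 genes (12.4% of those tested) were set apart as higher and 1502 (12%) as lower. Nothing is read from these shares, because the same values chose the libraries. More than 4-fold differences in both conditions were seen for 44 higher and 45 lower genes, and more than 2-fold differences for 559 and 495. In control cells, 4264 genes differed by more than 1.5-fold between replicate 3 and the mean of the others, and in activated cells 3821 did. The direction was the same for 3067 genes past the limit in both conditions and opposite for 13. Replicates 1 and 2, in comparison, differed by more than 1.5-fold for 317 genes in control and 277 in activated cells, and 34 of these went the same way. The median size of the log2 difference between a pair of libraries was 0.0931 and 0.0714 for replicates 1 and 2 of control and activated cells, and from 0.369 to 0.410 for pairs with replicate 3. Across genes, which are not independent replicates, the replicate 3 differences of the 2 conditions had a correlation of 0.869, and those between replicates 1 and 2 had a correlation of -0.113.

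**Figure D1:**
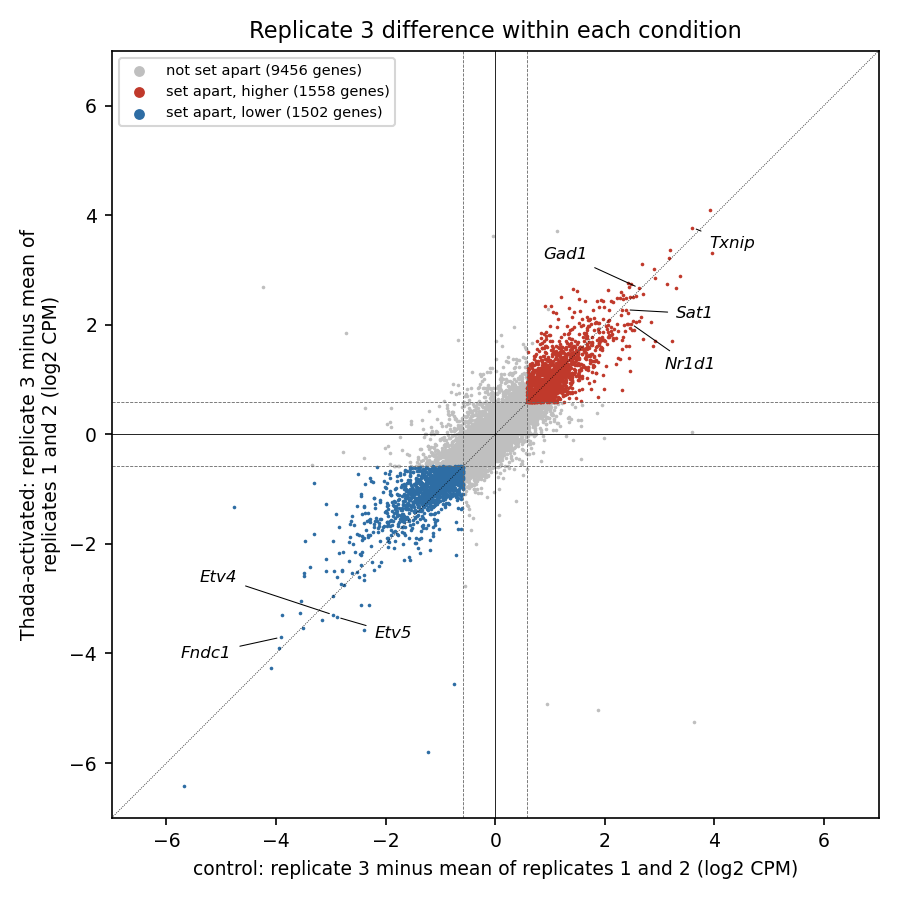
Each point is 1 of 12516 tested genes. The horizontal axis is the log2 CPM of control replicate 3 minus the mean of control replicates 1 and 2, the vertical axis is the same for *Thada*-activated cells, the dashed lines mark 1.5-fold and the dotted line marks equal differences. The 1558 higher and 1502 lower genes lie along the dotted line. The 7 labelled genes, which were proposed from these same values, are far out on it.

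The limit of 1.5-fold runs through a dense part of this range, so genes on its sides are alike. Just inside it were *Ears2*, *Hsd3b7* and *Pop7*, with differences in the condition where they were smaller of 0.59, 0.59 and 0.59 on the log2 scale. Just outside it were *Fam149a*, *Rnf219* and *Wwp1*, with 0.58, 0.58 and 0.58.

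Of the 7 genes proposed as markers of the replicate 3 state, 4 were higher and 3 lower in both conditions, and in none did replicate 3 overlap the other libraries. These genes were proposed from the same expression values, so their direction and lack of overlap are no test of the state. *Txnip* (NCBI gene 56338, chr3:96557957-96561857 in GRCm38.p6), whose protein binds thioredoxin and restrains glucose uptake, was at 25.01, 26.2 and 312 CPM in control and 27.9, 26.5 and 373 CPM in activated cells. Both replicate 3 libraries held more than 10 times the *Txnip* level of the other 4, and the fitted log2 difference was 3.69 (standard error 0.06, 2 libraries against 4, adjusted for condition). *Gad1* (NCBI gene 14415, chr2:70561303-70602014), which encodes an enzyme that makes GABA from glutamate, was at 5.51, 6.75 and 38.2 CPM in control and 6.19, 5.18 and 36.7 CPM in activated cells, a log2 difference of 2.66 (standard error 0.10). *Nr1d1* (NCBI gene 217166, chr11:98767932-98775377), the gene of the clock repressor REV-ERBα, was at 27.9, 23.1 and 142 CPM in control and 23.1, 25.9 and 99.8 CPM in activated cells, a log2 difference of 2.26 (standard error 0.10). Its level was high in both replicate 3 libraries and higher in the control one. The enzyme encoded by *Sat1* (NCBI gene 20229, chrX:155213126-155216449) acetylates polyamines and so starts their breakdown or export. *Sat1* was at 16.5, 17.8 and 89.8 CPM in control and 18.5, 18.6 and 89.9 CPM in activated cells, a log2 difference of 2.34 (standard error 0.07), and was nearly equal in the 2 high libraries.

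The lower markers were at a few CPM in replicate 3. *Etv4* (NCBI gene 18612, chr11:101769747-101785310) was at 21.9, 18.9 and 2.52 CPM in control and 16.1, 16.1 and 1.54 CPM in activated cells, a log2 difference of -3.17 (standard error 0.15). *Etv5* (NCBI gene 104156, chr16:22381313-22439570) was at 41.9, 43.1 and 5.62 CPM in control and 28.3, 31.2 and 2.84 CPM in activated cells, a log2 difference of -3.10 (standard error 0.12). Both are PEA3-family transcription factors, and both stayed above the floor in every library. *Fndc1* (NCBI gene 68655, chr17:7738569-7827340), which encodes a protein with fibronectin type III domains, was at 37.8, 22.5 and 1.84 CPM in control and 39.1, 40.7 and 2.96 CPM in activated cells, a log2 difference of -3.87 (standard error 0.29). Control replicates 1 and 2 differed from each other for *Fndc1*, yet both were far above replicate 3.

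**Figure D2:**
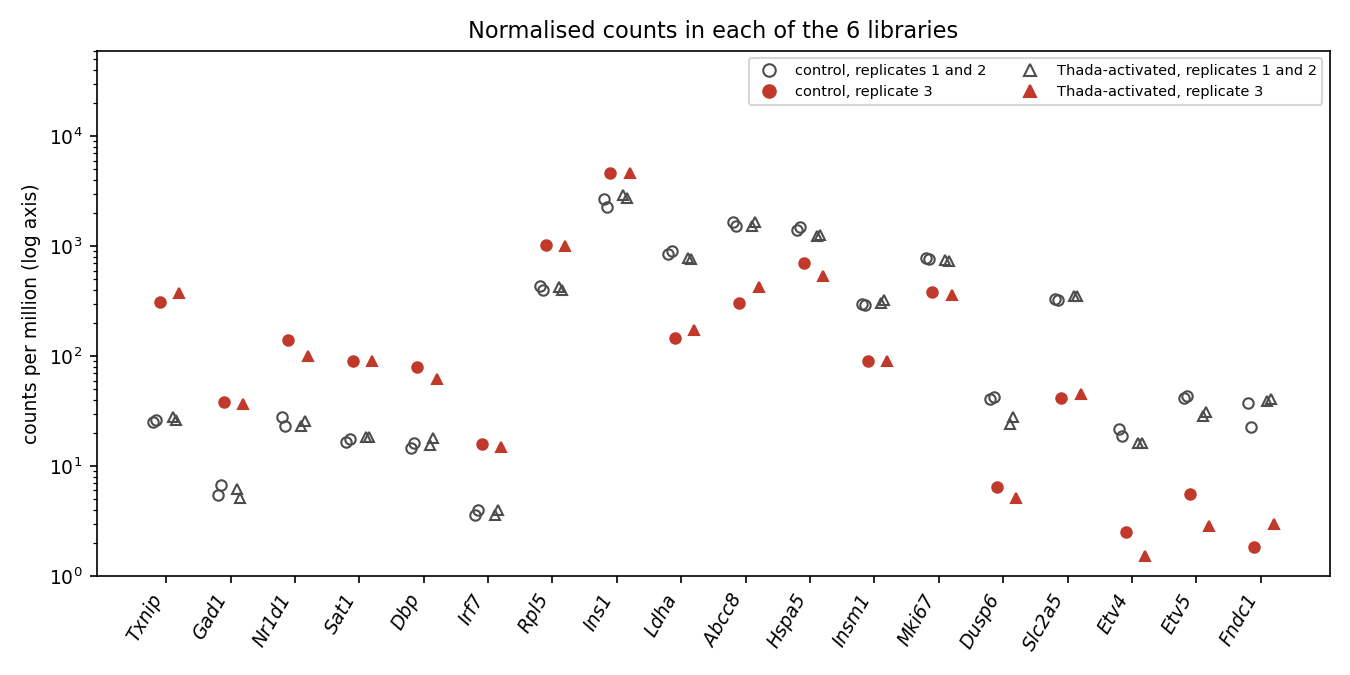
Normalised CPM of 18 genes in each of the 6 libraries, on a log axis. Circles are control and triangles *Thada*-activated libraries, filled red for replicate 3 and open for replicates 1 and 2. For each gene the filled symbols lie on one side of all open symbols, from *Txnip* (312 and 373 CPM against 25.0 to 27.9 CPM) to *Fndc1* (1.84 and 2.96 CPM against 22.5 to 40.7 CPM).

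Among genes with a mean of at least 5 CPM, the genes with the largest higher differences beside *Txnip* were of varied function. *Rdm1*, a gene linked to the response to DNA damage, was at 3.81, 5.88 and 50.1 CPM in control and 5.41, 5.87 and 42.4 CPM in activated cells. *Tmem255a*, which encodes a membrane protein, was at 9.25, 8.96 and 59.4 CPM in control and 8.73, 9.20 and 53.8 CPM in activated cells. In these genes the replicate 3 libraries of the 2 conditions were close to each other and several-fold above the rest. *Ppm1j* (3.24), *Itpka* (2.94), *Mcam* (2.63), *Fgfr3* (2.62), *Dhx58* (2.60), *Dpyd* (2.47) and *Gstt1* (2.45) were among them too, with their log2 differences in parentheses, and *Rdm1* had 3.14 and *Tmem255a* 2.64. *Dhx58* encodes a relative of the RNA sensors that trigger interferon, and *Fgfr3* a receptor for fibroblast growth factors.

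The lower genes by the same measure included transporters of sugar and lactate. *Slc2a5*, the gene of the fructose transporter GLUT5, was at 333, 322 and 41.9 CPM in control and 351, 349 and 44.99 CPM in activated cells, about the same in the 2 replicate 3 libraries. *Slc16a3*, the gene of the lactate exporter MCT4, was at 194, 219 and 26.7 CPM in control and 167, 183 and 30.8 CPM in activated cells. *Heatr3*, which has a part in the import of ribosomal proteins into the nucleus, was at 27.2, 25.5 and 4.19 CPM in control and 26.6, 24.96 and 4.38 CPM in activated cells, and *Pop1*, a subunit of the RNA-processing enzymes RNase P and RNase MRP, was at 11.1, 10.5 and 1.49 CPM in control and 9.91, 9.78 and 1.37 CPM in activated cells. All of these were lower in replicate 3 of both conditions by more than 4-fold. *Aven* (-2.86) and *Best3* (-2.84) were lower too. *Hist1h1c* (-3.52), *Hist1h2bc* (-3.01) and *Zfp966* are uncertain, since they share sequence with close copies among which reads could be divided. For *Zfp966* the levels were 9.66, 14.1 and 0.115 CPM in control and 10.6, 8.97 and 0 CPM in activated cells, so that replicate 3 was at or under the floor in both conditions.

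The genes were also grouped in 37 lists by pathway and cell type, and the lists are read against all tested genes, of which 12.4% were set apart as higher and 12% as lower, with a median log2 difference of 0.00. The list around *Txnip* and the glucose-responsive factors held both directions. Of its 16 tested genes, 6 were higher, 3 lower and 7 neither, with a median of 0.33. All 5 tested arrestin-domain genes were at or above a log2 difference of 0.30, and 3 were set apart as higher. *Arrdc4*, the closest relative of *Txnip* among them in its response to glucose, was at 4.86, 3.67 and 12.6 CPM in control and 3.94, 3.62 and 11.6 CPM in activated cells, and *Arrdc2* was at 4.28, 3.78 and 11.02 CPM in control and 3.60, 3.80 and 10.1 CPM in activated cells. The glucose-response targets were mixed. *Khk*, the gene of ketohexokinase, was at 11.4, 9.43 and 25.01 CPM in control and 10.8, 9.66 and 24.4 CPM in activated cells, *Pklr*, the gene of a pyruvate kinase of liver, was at 7.26, 7.33 and 13.4 CPM in control and 8.11, 6.04 and 17.01 CPM in activated cells, and the weakly expressed *Acacb*, the gene of a mitochondrial acetyl-CoA carboxylase, was at 0.586, 0.175 and 1.66 CPM in control and 0.225, 0.230 and 1.59 CPM in activated cells. These 3 were higher in replicate 3, while *Fasn*, the gene of fatty acid synthase, was lower at 315, 278 and 109.9 CPM in control and 289.7, 314 and 124 CPM in activated cells. The sensors themselves did not go with *Txnip*. *Mlxipl*, which encodes ChREBP, was at 403, 345 and 131 CPM in control and 365, 418 and 159 CPM in activated cells, and *Mlx* was at 101, 101 and 46.9 CPM in control and 93.2, 94.4 and 51.9 CPM in activated cells, both lower in replicate 3. *Khk*, *Pklr*, *Mlxipl* and *Mlx* are members of the list singled out after their values were seen.

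Because *Txnip* and *Pklr* were higher together, their promoters are shown where they hold the carbohydrate response element that the ChREBP and MLX pair is known to bind. Promoters are from RefSeq (GRCm38.p6), from 250 bases before to 50 bases after the start of each gene, and were found for 10020 of the 12516 tested genes. The letters CACGNG and CNCGNG, 5 bases apart, were searched on both strands. They were in 0.848% of all these promoters and in 2 of 14 from the list, and both of these belonged to genes that were higher. Capitals mark the match. The *Txnip* stretch is chr3:96557852-96557908 and that of *Pklr* is chr3:89136433-89136489, both on the plus strand. A match describes the letters and does not show that a factor was bound.
Txnip: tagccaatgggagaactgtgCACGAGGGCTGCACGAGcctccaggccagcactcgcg
Pklr: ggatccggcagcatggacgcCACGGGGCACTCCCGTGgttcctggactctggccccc

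Of 18 tested genes of glycolysis, 0 were set apart as higher, 10 were lower and 8 neither, with a median of -0.73 against 0.00 over all genes. The difference was positive for 5 of the 18. *Ldha*, the gene of the lactate dehydrogenase chain that favours lactate, was at 844, 902 and 148 CPM in control and 773, 759 and 174 CPM in activated cells, a log2 difference of -2.35 (standard error 0.09). *Pfkl*, a subunit gene of phosphofructokinase, was at 249.9, 265 and 59.2 CPM in control and 222, 224 and 72.3 CPM in activated cells, a log2 difference of -1.86 (standard error 0.10). In both genes the replicate 3 libraries were far below all others, and the control one was the lower of the pair. *Tpi1* was at 706, 782 and 269 CPM in control and 693, 688 and 292 CPM in activated cells and *Eno1* at 1478, 1512 and 591 CPM in control and 1356, 1370.1 and 590.2 CPM in activated cells. *Gapdh*, the most abundant gene of the list and named after its values were seen, was at 4115, 4074 and 2305 CPM in control and 4269.5, 4402 and 2303 CPM in activated cells, also lower in both replicate 3 libraries. The TPM values (length-scaled transcript shares) of the whole list summed to 13145, 14189.7 and 5921 in control and 12943, 13415 and 6804 in activated cells.

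Targets of the hypoxia factor HIF outside the glycolysis list went both ways. Of 14 tested, 2 were higher, 3 lower and 9 neither, with a median of -0.42. *Bnip3*, a mitophagy gene, was at 339.7, 385 and 139 CPM in control and 282, 266 and 139 CPM in activated cells, and *P4ha1*, which encodes a collagen prolyl hydroxylase, was at 205, 220.4 and 125 CPM in control and 174, 182 and 97.1 CPM in activated cells. *Adm*, the gene of the peptide adrenomedullin, was on the other side at 13.8, 12.7 and 32.4 CPM in control and 10.1, 10.4 and 20.5 CPM in activated cells. *Egln3*, an oxygen sensor, was the other higher gene, from low levels, at 0.527, 0.698 and 1.89 CPM in control and 0.450, 0.518 and 1.14 CPM in activated cells.

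In mitochondria the picture was narrower. Of 20 tricarboxylic acid cycle genes, 2 were higher, 1 lower and 17 neither (median 0.18), and of 37 genes of respiratory complex I, 1 was higher, 0 lower and 36 neither (median 0.11). *Pcx*, the gene of pyruvate carboxylase, by which β-cells feed much of their pyruvate into the cycle, was at 139.7, 135 and 39.1 CPM in control and 153, 153 and 57.3 CPM in activated cells, lower in replicate 3, with a log2 difference of -1.61 (standard error 0.08). *Pdha1*, a subunit gene of pyruvate dehydrogenase, was at 77.9, 78.1 and 128 CPM in control and 77.1, 72.6 and 120.5 CPM in activated cells, higher in replicate 3. *Sdhd* (0.62) and the complex I gene *Ndufa6* (1.30) were higher as well.

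Of 36 genes of sterol and fatty acid synthesis, 1 was higher, 6 lower and 29 neither (median -0.05). Among them, 0 of 9 genes of fatty acid synthesis were higher, 4 lower and 5 neither (median -0.51), and of 19 genes of sterol synthesis 1 was higher, 1 lower and 17 neither (median -0.05). Of 8 regulators and uptake genes, 0 were higher, 1 lower and 7 neither (median 0.28), and the branches were not compared by a test. *Srebf1*, the lower regulator, whose protein drives fatty acid synthesis, was at 389, 372 and 162 CPM in control and 447, 443 and 178 CPM in activated cells, and the desaturase gene *Scd2* was at 2143, 2303 and 1125 CPM in control and 2255, 2332 and 1114 CPM in activated cells. *Fads2*, another desaturase gene, had a log2 difference of -0.94. All 3 were lower in replicate 3 of both conditions.

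Most genes of the cytosolic ribosome were set apart as higher in replicate 3. Of 77 tested genes of its proteins, 56 were higher, 0 lower and 21 neither, with a median of 0.83. *Rpl5* was at 436, 402 and 1017 CPM in control and 425, 399.5 and 1005 CPM in activated cells, *Rpl9* at 239, 239 and 584 CPM in control and 248, 219.9 and 602 CPM in activated cells, *Rpl24* at 288, 272 and 681 CPM in control and 302, 298 and 664 CPM in activated cells and *Rpl22* at 108, 98.1 and 257 CPM in control and 115, 109 and 258 CPM in activated cells. In each the replicate 3 libraries of the 2 conditions were alike and more than 2-fold above the rest. Together these genes took 2.29%, 2.10% and 3.95% of the counts of control libraries and 2.42%, 2.37% and 3.97% of those of activated libraries. Ribosomal protein genes have many near-identical copies in the genome, so the split of reads among them is uncertain. The ribosome of mitochondria differed less, with 6 of 78 genes higher, 3 lower and 69 neither (median 0.20). There *Mrps2* was lower at 50.8, 46.04 and 25.2 CPM in control and 51.3, 49.2 and 22.6 CPM in activated cells, while *Mrpl38* (0.90), *Mrpl47* (0.77) and *Mrpl9* (0.76) were higher. *Eif4b*, the gene of an initiation factor that helps unwind messenger RNA, belongs to no list and was singled out after its values were seen. It was at 273, 281 and 1031 CPM in control and 273, 268 and 984 CPM in activated cells, a log2 difference of 1.88 (standard error 0.05), with replicate 3 more than 3-fold above every other library. Of 20 cytosolic tRNA synthetases, 0 were higher, 1 lower and 19 neither (median -0.21), and the lower one was *Lars* (-0.74).

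Length and level varied along with these differences. The replicate 3 difference had a Spearman correlation of -0.204 with transcript length over 12368 genes and of -0.001 with GC content. With the mean level in CPM it was -0.139 over 12516 genes. In 5 equal groups of genes from the lowest to the highest level, 24.4%, 14.9%, 9.11%, 6.19% and 7.55% were set apart as higher and from 10.1% to 14.02% as lower. In 5 equal groups of genes from the shortest to the longest effective length, the median difference was 0.17, 0.08, 0.04, -0.07 and -0.19, and without the ribosomal protein genes the first was 0.15. The median transcript length was 2883 bases for the higher genes, 3877.5 for the lower genes and 3513.5 for the others. The part of length and of level in the differences of the lists was not tested.

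Insulin holds back a set of genes that FOXO factors switch on. Of 6 tested, 5 were higher in replicate 3, 0 lower and 1 neither, with a median of 1.26. *Gadd45a*, a gene of growth arrest, was at 26.2, 26.5 and 103 CPM in control and 32.9, 29.6 and 114 CPM in activated cells, and *Bcl6*, a transcriptional repressor, was at 4.16, 3.90 and 15.2 CPM in control and 4.17, 5.64 and 13.4 CPM in activated cells. *Pik3ip1*, an inhibitor of phosphoinositide 3-kinase, was less abundant, at 0.469, 1.05 and 5.79 CPM in control and 1.52, 1.38 and 6.37 CPM in activated cells. These genes had no overlap between replicate 3 and the others. Of 11 adaptors and kinases of insulin signalling, 0 were higher, 1 was lower and 10 neither (median -0.04), the lower gene being *Mtor* at 48.2, 48.8 and 27.8 CPM in control and 51.7, 55.8 and 35.3 CPM in activated cells (named after its values were seen). Among the receptors only *Insrr*, a relative of the insulin receptor that is known in β-cells, was set apart, at 67.9, 64.4 and 18.1 CPM in control and 87.4, 96.8 and 37.8 CPM in activated cells.

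Clock genes set apart in replicate 3 were higher with 1 exception, and more were not set apart. Of 21 tested, 9 were higher, 1 lower and 11 neither, with a median of 0.69. The output factor *Dbp* was at 14.5, 16.2 and 79.1 CPM in control and 15.7, 17.9 and 62.6 CPM in activated cells, a log2 difference of 2.13 (standard error 0.10). *Per3* was at 14.4, 15.1 and 37.1 CPM in control and 14.4, 16.6 and 43.2 CPM in activated cells, *Per1* at 37.8, 35.4 and 75.96 CPM in control and 33.4, 36.1 and 64.3 CPM in activated cells and *Bhlhe40*, which encodes a repressor, at 68.7, 75.1 and 167 CPM in control and 56.98, 60.5 and 177 CPM in activated cells. All of these were higher in both replicate 3 libraries. *Per2*, although a partner of *Per1* and *Per3*, was on the other side at 25.7, 22.2 and 12.9 CPM in control and 25.00, 26.5 and 12.9 CPM in activated cells. The core activators were not set apart, with *Arntl* at 13.8, 14.5 and 12.2 CPM in control and 12.4, 12.2 and 9.16 CPM in activated cells and *Clock* at 188, 195 and 131 CPM in control and 181, 185 and 133 CPM in activated cells. *Per1*, *Per2*, *Bhlhe40*, *Arntl* and *Clock* were singled out after their values were seen. All 3 tested output factors, which bind the D-box, were higher.

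Clock activators bind the E-box, searched as CACGTG, and output factors bind the D-box, searched as TTATGNAA, both on both strands of the same promoter windows. The E-box was in 11.8% of all promoters and in 5 of 17 from the clock list, of which 3 belonged to higher genes and 2 to genes that were neither. The D-box was in 2.36% of all promoters and in 2 of 17, those of *Per1* and *Per3*. They are shown because both genes were higher, with the matches in capitals. The *Per3* stretch is chr4:151044796-151044890 on the minus strand, and that of *Per1* is chr11:69098905-69098948 on the plus strand.
Per3: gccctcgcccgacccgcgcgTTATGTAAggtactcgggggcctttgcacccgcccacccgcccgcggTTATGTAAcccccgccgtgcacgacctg
Per1: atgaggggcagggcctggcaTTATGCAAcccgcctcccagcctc

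The branch of ERK signalling that *Etv4* and *Etv5* belong to held more lower than higher genes. Of 17 tested genes of ERK feedback and the PEA3 family, 2 were higher, 9 lower and 6 neither, with a median of -0.99, which came to between -0.99 and -0.79 under the other scalings and to -0.54 with no filter on low counts. All 3 PEA3 factors were lower, and *Etv1* was the most abundant of them at 184, 179 and 56.7 CPM in control and 176, 181 and 54.9 CPM in activated cells. *Dusp6*, the gene of a phosphatase that turns ERK off, was at 41.1, 42.4 and 6.48 CPM in control and 24.3, 28.01 and 5.18 CPM in activated cells, a log2 difference of -2.53 (standard error 0.11). *Dusp5*, a nuclear phosphatase of ERK named after its values were seen, was at 55.2, 47.7 and 21.4 CPM in control and 42.6, 46.5 and 26.3 CPM in activated cells. In these genes every replicate 3 value was below every other value. Other targets of ERK differed. *Egr1* was lower at 149, 163 and 63.8 CPM in control and 117, 130.4 and 60.5 CPM in activated cells, while *Ier3* was higher at 7.79, 6.63 and 23.01 CPM in control and 6.48, 6.56 and 19.6 CPM in activated cells and *Myc* higher at 5.62, 4.31 and 12.6 CPM in control and 5.18, 6.10 and 11.8 CPM in activated cells, the last pair named after their values were seen. Immediate early genes as a list did not lean one way, with 6 of 23 higher, 3 lower and 14 neither (median 0.10, and 0.16 on log2 FPKM with a pseudocount of 0.1). *Gadd45b* had the largest difference of that list and was at 11.5, 10.7 and 52.2 CPM in control and 13.5, 10.6 and 48.7 CPM in activated cells. *Junb* (0.85) was higher and *Btg2* (-0.90) lower.

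Most chaperones of the endoplasmic reticulum (ER) were set apart as lower. Of 30 tested genes of ER folding and degradation, 0 were higher, 16 lower and 14 neither, with a median of -0.70. The 17 chaperones and folding enzymes all had negative differences, and 12 of them were set apart as lower. Of 8 genes of degradation 2 were lower, as were 2 of 5 sensors, and the branches were not compared by a test. *Hspa5*, which encodes the chaperone BiP, was at 1397, 1492 and 705 CPM in control and 1232, 1273 and 537 CPM in activated cells, a log2 difference of -1.13 (standard error 0.06). *Calr*, the gene of the calcium-binding chaperone calreticulin, was at 1809, 1765 and 796 CPM in control and 1702, 1726 and 682 CPM in activated cells, a log2 difference of -1.25 (standard error 0.06). *Manf* was at 328, 291 and 149.7 CPM in control and 294, 283 and 127 CPM in activated cells and *Dnajb11*, a partner of BiP, at 170.1, 174 and 72.5 CPM in control and 163, 167 and 68.6 CPM in activated cells. In all 4, both replicate 3 libraries were below the rest by about the same factor. Of 21 genes of transport from the ER to the Golgi, 0 were higher, 5 lower and 16 neither (median -0.37), and 5 had positive differences. *Copa*, a coat subunit of the vesicles between Golgi and ER, was at 612, 593 and 275 CPM in control and 595, 622 and 244 CPM in activated cells. *Sec23b* (-0.92), *Sec24d* (-0.74) and *Copg1* (-0.74) were the next.

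The ER stress element, through which the factors ATF6 and XBP1 are known to act, was searched as CCAAT and CCACG, 9 bases apart, on both strands. It was in 18 of 10020 promoters (0.18%) and in 10 of 26 from the ER list, of which 8 belonged to lower genes, 2 to genes that were neither and 0 to higher genes. The promoters of *Hspa5* (chr2:34772005-34772063, plus strand), *Calr* (chr8:84847055-84847113, minus strand), *Pdia6* (chr12:17266471-17266529, plus strand) and *Syvn1* (chr19:6046512-6046570, plus strand) are shown because these genes were lower together, with the match in capitals. *Pdia6* was at 947, 971 and 450.1 CPM in control and 816, 814 and 371 CPM in activated cells and *Syvn1*, which encodes a ubiquitin ligase of ER degradation, at 182, 167 and 106 CPM in control and 164, 183 and 80.03 CPM in activated cells, and both were named after their values were seen.
Hspa5: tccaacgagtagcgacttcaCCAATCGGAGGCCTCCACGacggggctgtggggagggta
Calr: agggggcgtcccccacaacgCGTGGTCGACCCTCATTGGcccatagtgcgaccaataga
Pdia6: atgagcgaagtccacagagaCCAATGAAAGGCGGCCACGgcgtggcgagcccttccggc
Syvn1: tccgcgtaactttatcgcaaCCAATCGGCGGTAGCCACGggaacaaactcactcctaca

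Most genes of the ATF4 arm of the stress response were not set apart. Of 30 tested genes, 1 was higher, 5 lower and 24 neither. The median was -0.00, and its sign changed in 5 of the other scalings and filters. *Ddit3*, the gene of CHOP, was the higher one, at 32.5, 33.5 and 166 CPM in control and 26.9, 25.1 and 76.3 CPM in activated cells, with replicate 3 far above the rest in both conditions and the control library above the activated one. *Atf4* itself was at 366, 368 and 275 CPM in control and 339, 343 and 211 CPM in activated cells (named after its values were seen). *Slc7a11*, the cystine transporter gene, was at 11.2, 12.7 and 4.25 CPM in control and 10.4, 11.8 and 2.73 CPM in activated cells, *Atf5* at 218, 229 and 90.1 CPM in control and 206, 207 and 87.3 CPM in activated cells and *Slc7a1*, an arginine transporter gene, at 158, 151 and 68.3 CPM in control and 151, 152 and 59.1 CPM in activated cells. These 3 were lower in both replicate 3 libraries.

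Genes of DNA replication and mitosis were lower or neither. Of 30 tested, 0 were higher, 10 lower and 20 neither, with a median of -0.61. *Tyms*, the gene of thymidylate synthase, was at 81.8, 77.8 and 19.4 CPM in control and 83.7, 85.9 and 26.4 CPM in activated cells, *Mcm2*, part of the replicative helicase, at 306, 301 and 169 CPM in control and 331, 337 and 138 CPM in activated cells, and *Mki67*, the proliferation marker, at 778, 772 and 384 CPM in control and 743, 739 and 358 CPM in activated cells. Each was lower in both replicate 3 libraries, with *Tyms* the most so. *Cenpf* had a log2 difference of -1.23. Of 13 cyclins and inhibitors of G1, 2 were higher, 2 lower and 9 neither (median 0.32, and 0.13 with no filter on low counts). The cyclin genes *Ccne1* (-0.79) and *Ccne2* (-0.70) were lower, and the inhibitor genes *Cdkn2a* (0.62) and *Cdkn1c* (0.95), the last at under 2 CPM, were higher. Of 12 targets of p53, 2 were higher, 0 lower and 10 neither (median -0.17), and these were *Bbc3* (0.85) and *Sesn1* (0.84).

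β-cell transcription factors were lower or not set apart. Of 15 tested, 0 were higher, 4 lower and 11 neither, with a median of -0.38. *Insm1*, a factor of endocrine cells, was at 301, 291 and 91.2 CPM in control and 303, 324 and 90.8 CPM in activated cells, a log2 difference of -1.74 (standard error 0.06). *Pdx1*, which activates the insulin genes, was at 233, 205 and 106 CPM in control and 229, 222 and 112 CPM in activated cells, and *Nkx2-2* was at 151, 134 and 85.5 CPM in control and 166, 175 and 80.1 CPM in activated cells. In these 3 the libraries of replicate 3 were below all others and close to each other. *Pax4* was at 12.01, 10.7 and 1.95 CPM in control and 20.9, 18.4 and 4.21 CPM in activated cells, lower in replicate 3 and higher in activated than in control cells throughout. *Neurod1* (-0.41), *Nkx6-1* (-0.33) and *Mafa* (-0.61), named after their values were seen, were not set apart. In bulk RNA, fewer cells of a type and less RNA per cell cannot be told apart.

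Several genes that couple glucose to insulin release were lower, while the insulin genes were not. Of 12 tested genes of the mature β-cell, 1 was higher, 5 lower and 6 neither, with a median of -0.62. *Abcc8*, the gene of the sulfonylurea receptor subunit of the potassium channel, was at 1674, 1532 and 302 CPM in control and 1543, 1656 and 430.1 CPM in activated cells, a log2 difference of -2.14 (standard error 0.11). *Kcnj11*, which encodes the pore of the same channel, was at 136, 126 and 42.9 CPM in control and 137, 140.0 and 57.2 CPM in activated cells. *Ffar1*, a receptor for fatty acids that raises insulin release, was at 59.7, 55.9 and 9.06 CPM in control and 63.2, 61.99 and 16.9 CPM in activated cells. All 3 were lower in replicate 3, and lower in control than in activated replicate 3. *Slc30a8*, the zinc transporter gene of insulin granules, was at 182, 205 and 85.7 CPM in control and 203, 192 and 116 CPM in activated cells, and *Ucn3* was at 26.6, 26.9 and 10.4 CPM in control and 37.7, 35.9 and 16.6 CPM in activated cells, both lower in replicate 3. *Ins1* went the other way at 2672, 2257 and 4647 CPM in control and 2928, 2718 and 4646 CPM in activated cells, and *Ins2*, at 64432, 56429 and 103050.0 CPM in control and 64296, 62902 and 81917 CPM in activated cells, was higher in both replicate 3 libraries without reaching 1.5-fold in activated cells. *Iapp*, the gene of the co-secreted peptide amylin, was at 37310.0, 34151 and 20649.6 CPM in control and 31667, 31390.5 and 24401 CPM in activated cells (named after its values were seen), lower in replicate 3 and not set apart. *G6pc2*, a β-cell glucose-6-phosphatase gene named after its values were seen, was at 3458, 4006 and 2596 CPM in control and 3161, 3058 and 3073 CPM in activated cells, lower in control replicate 3 and level in activated replicate 3.

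Granule proteins were split. Of 11 granins and convertases, 2 were higher, 2 lower and 7 neither (median -0.22). *Scg5*, a helper of the convertase PC2, was at 729, 715 and 1538 CPM in control and 713, 668 and 1629.8 CPM in activated cells, and *Pcsk1n*, which encodes an inhibitor of PC1/3, was at 600.4, 469 and 1404 CPM in control and 672, 708 and 1345 CPM in activated cells, both higher. *Pcsk1*, the gene of PC1/3 itself, was at 404, 409 and 202 CPM in control and 376, 371 and 242 CPM in activated cells, and *Vgf* at 452, 407 and 229 CPM in control and 415, 477 and 202 CPM in activated cells, both lower. Of 18 genes of exocytosis, 1 was higher, 4 lower and 13 neither (median -0.16). *Cplx2*, which encodes the fusion clamp complexin, was at 233, 239 and 75.4 CPM in control and 244, 243 and 155 CPM in activated cells, *Unc13a*, a priming factor, at 232, 225 and 101 CPM in control and 204, 219 and 121 CPM in activated cells and *Syt13* at 616, 618 and 305 CPM in control and 639, 626 and 366 CPM in activated cells. *Syt5* (-1.12) was lower too. The activated replicate 3 library lay between control replicate 3 and the other 4 libraries for *Cplx2*.

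*Gad1* and *Sat1* stood out within their own pathways. Of 5 tested genes of GABA metabolism, *Gad1* alone was set apart. Of 12 tested genes of polyamine metabolism, 4 were higher, 0 lower and 8 neither (median 0.39, and 0.20 with no filter on low counts). Among these, besides *Sat1*, were *Paox*, an oxidase gene of polyamine breakdown, at 9.08, 8.79 and 16.4 CPM in control and 11.3, 8.97 and 15.6 CPM in activated cells, and *Azin2*, an antizyme inhibitor gene, at 1.93, 1.80 and 6.31 CPM in control and 1.97, 2.07 and 6.31 CPM in activated cells. *Azin2* had low levels in all libraries.

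Interferon-response genes were mostly higher in replicate 3. Of 22 tested, 14 were higher, 0 lower and 8 neither, with a median of 1.05, which came to between 0.71 and 1.06 under the other scalings and filters. *Irf7*, the factor that amplifies interferon output, was at 3.57, 4.02 and 16.01 CPM in control and 3.60, 4.03 and 14.8 CPM in activated cells, a log2 difference of 2.02 (standard error 0.12). *Ddx58*, which encodes the RNA sensor RIG-I, was at 8.02, 9.08 and 25.99 CPM in control and 7.71, 8.34 and 23.9 CPM in activated cells, and *Bst2*, the gene of tetherin, at 1.58, 0.815 and 4.59 CPM in control and 1.07, 1.32 and 4.27 CPM in activated cells. The most abundant gene of the list was *H2-D1*, at 353, 329 and 626 CPM in control and 379, 376 and 613 CPM in activated cells, a histocompatibility gene whose reads could be shared with close relatives. *Isg15* at 0.703, 0.931 and 1.61 CPM in control and 0.450, 0.690 and 1.71 CPM in activated cells, *Ifit1* at 0.644, 0.989 and 1.61 CPM in control and 1.01, 0.978 and 2.28 CPM in activated cells and *B2m* at 51.2, 48.9 and 113 CPM in control and 49.4, 43.8 and 85.8 CPM in activated cells were, like *H2-D1*, named after their values were seen. All of these were higher in both replicate 3 libraries, although *Isg15* and *Ifit1* had under 3 CPM everywhere. The subunits *Psmb8* at 1.93, 2.44 and 8.15 CPM in control and 3.55, 3.22 and 11.4 CPM in activated cells, *Psmb9* at 1.17, 0.989 and 2.12 CPM in control and 0.957, 1.38 and 3.19 CPM in activated cells and *Psmb10* at 4.22, 3.78 and 7.52 CPM in control and 3.55, 4.49 and 7.62 CPM in activated cells, which interferon brings into the proteasome, were the 3 higher genes among 37 of the proteasome, of which 3 were lower and 31 neither (median -0.01, and from -0.02 to -0.00 under the other scalings and filters). *Psmd6*, a subunit of its lid, was at 90.7, 101 and 27.02 CPM in control and 94.4, 93.3 and 36.9 CPM in activated cells, the lowest of the proteasome genes in its difference.

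The interferon response element was searched as GAAA and GAAA, 2 bases apart, on both strands. It was in 3.43% of all promoters and in 11 of 20 from the interferon list, of which 8 belonged to higher genes, 3 to genes that were neither and 0 to lower genes. The promoters of *Bst2* (chr8:71537567-71537622, minus strand), *Isg15* (chr4:156200855-156200916, minus strand), *Ifit1* (chr19:34640765-34640833, plus strand) and *B2m* (chr2:122147528-122147577, plus strand) are shown because these genes were higher together. Capitals mark the matches, which overlap in *Bst2* and *Isg15*.
Bst2: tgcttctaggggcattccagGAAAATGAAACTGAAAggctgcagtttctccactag
Isg15: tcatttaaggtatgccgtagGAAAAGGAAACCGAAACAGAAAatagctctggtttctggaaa
Ifit1: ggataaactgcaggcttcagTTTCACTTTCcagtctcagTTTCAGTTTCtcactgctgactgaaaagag
B2m: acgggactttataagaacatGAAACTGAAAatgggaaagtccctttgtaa

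**Figure D3:**
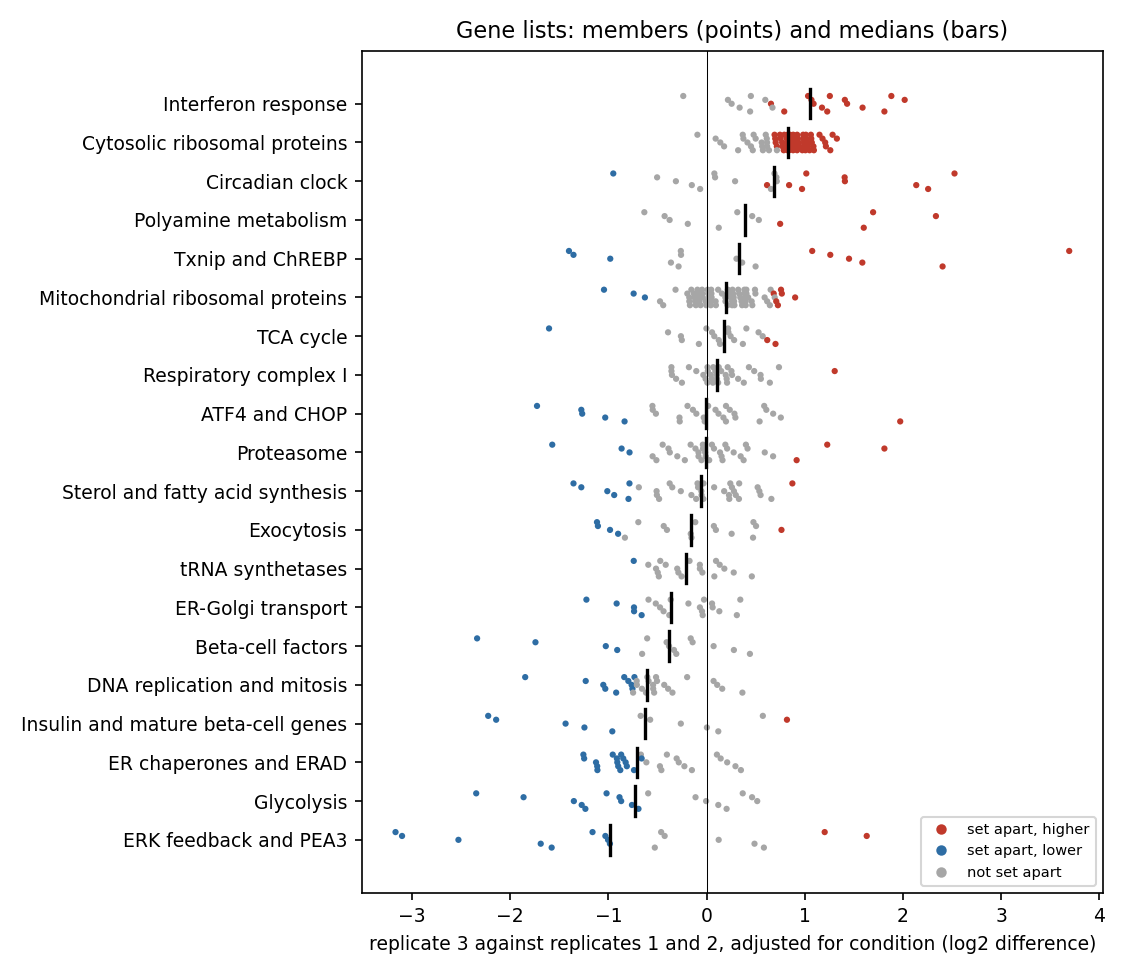
Members of 20 gene lists (points) and their medians (bars), ordered by median. The horizontal axis is the log2 difference of replicate 3 against replicates 1 and 2, adjusted for condition, and red and blue points are genes set apart as higher and lower. Interferon and ribosomal protein genes lie mostly to the right (medians 1.05 and 0.83), and glycolysis and ERK feedback genes mostly to the left (medians -0.73 and -0.99).

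Markers of other cells were few. Of 30 markers, 22 were in the table and 11 were tested, of which 1 was higher, 3 lower and 7 neither in replicate 3 (median -0.34, which came to 0.20 for the 9 with at least 10 counts in every library). Their TPM summed to 2316, 2201 and 1039 in control and 2267, 2242 and 1325 in activated cells, and most of this was *Ttr*, which β-cells also express. *Ttr* was at 1299, 1185 and 654 CPM in control and 1265, 1256 and 787 CPM in activated cells and the somatostatin gene *Sst* at 156, 129 and 68.96 CPM in control and 143, 131 and 57.96 CPM in activated cells, both lower in replicate 3. *Col1a1* was higher at 1.41, 1.28 and 3.21 CPM in control and 1.01, 1.78 and 3.47 CPM in activated cells and the macrophage marker *Cd68* lower at 1.11, 0.582 and 0.402 CPM in control and 1.24, 0.978 and 0.569 CPM in activated cells. Another 8 of the markers had 3 counts or fewer in every library, among them *Sox9* of ducts, *Cel* and *Amy2a5* of acinar cells, *Cdh5* and *Kdr* of endothelium and *Adgre1* of macrophages. The other endothelial marker, *Pecam1*, had from 6 to 22 counts and was not tested. Its levels, here without the TMM factor, were 0.347, 0.350 and 1.24 CPM in control and 0.338, 0.460 and 1.103 CPM in activated cells, higher in both replicate 3 libraries, and it was named after these values were seen. The part of other cells in the replicate 3 differences was not tested.

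The replicate 3 differences of control and activated cells were compared through the interaction of condition and replicate 3. Each condition has 1 replicate 3 library, and both were selected on their expression values, so the spread among replicate 3 libraries was not measured. The fit takes it to equal that of replicates 1 and 2. The calls and estimates therefore describe how this pair of libraries differed and do not show a difference between the conditions, and no p is given for single genes. The interaction was called at an adjusted p under 0.05 by edgeR's quasi-likelihood test for 871 of 12516 genes (6.96%). With the replicate number also a block, 559 genes were called. DESeq2, which gave no adjusted p for many genes of lower level, called 113. On the log2 scale of FPKM the count was 52 with a pseudocount of 1 and 149 with 0.1. The count was 1748 without control replicate 1, 1442 without control replicate 2, 362 without activated replicate 1 and 351 without activated replicate 2.

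The genes named first had the lowest p in this comparison, and most had their lowest value in control replicate 3. *Sez6l*, which encodes a membrane protein of neurons and β-cells, was at 674, 645 and 224 CPM in control and 598, 638 and 436 CPM in activated cells, an interaction of 1.06 on the log2 scale (standard error 0.09). *Rgs4*, a brake on G-protein signalling, was at 122, 133 and 56.5 CPM in control and 122, 115 and 120.0 CPM in activated cells, an interaction of 1.19 (standard error 0.10). In *Sez6l* both replicate 3 libraries were below the rest and the control one was the lower, and in *Rgs4* control replicate 3 alone was low. For *Cplx2*, given above, the interaction was 0.99. *Lrpprc*, a factor of mitochondrial messenger RNA, was at 141, 139 and 45.7 CPM in control and 140.2, 140.3 and 88.2 CPM in activated cells, and the prolactin receptor gene *Prlr* was at 166, 185 and 35.1 CPM in control and 171, 173 and 63.8 CPM in activated cells. Both had a smaller difference in activated cells, with interactions of 0.94 and 0.89. *Tm4sf4* (0.94), *Glb1l2* (1.03) and *Ociad2* (1.06) also had positive interactions, and *Glb1l2* and *Ociad2* were high only in activated replicate 3, at 76.3 and 57.4 CPM. *Eif4ebp1*, the gene of a brake on translation and a target of ATF4, had the opposite sign at 81.9, 70.8 and 124 CPM in control and 81.2, 80.2 and 72.1 CPM in activated cells, an interaction of -0.86. *Gm21451* was called too, but had 0 counts in some libraries and shares sequence with close copies, so no fold is given.

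By list, the estimates of the interaction are given by sign and median as a description of these libraries, beside 6241 positive and 6275 negative estimates over all 12516 genes (median -0.00). Over all genes the replicate 3 differences were smaller in activated cells, with a standard deviation of 0.669 against 0.721 in control. A smaller difference gives a positive estimate for a lower gene and a negative one for a higher gene. The signs within lists of mostly lower or mostly higher genes were not compared with this. Of 30 ATF4 genes, 5 were positive and 25 negative (median -0.32). *Ddit3* had an interaction of -0.77. *Cebpb* was at 9.25, 6.52 and 13.9 CPM in control and 10.6, 12.2 and 8.13 CPM in activated cells, an interaction of -1.31, with control replicate 3 the highest and activated replicate 3 the lowest of its own condition. *Slc3a2*, the shared chain gene of amino acid transporters, was at 244, 245 and 340.0 CPM in control and 239.8, 248 and 241 CPM in activated cells, and the serine synthesis gene *Phgdh* at 137, 147 and 148 CPM in control and 129, 127 and 92.8 CPM in activated cells. For *Slc3a2* only control replicate 3 was high, and for *Phgdh* only activated replicate 3 was low. Of 20 tRNA synthetases, which ATF4 also drives, 3 were positive and 17 negative (median -0.20). *Yars* was at 141, 143 and 235 CPM in control and 146, 139 and 161 CPM in activated cells and *Aars* at 462, 430.3 and 441 CPM in control and 419, 435 and 300.3 CPM in activated cells. Of 30 replication and mitosis genes, 2 were positive and 28 negative (median -0.32), of 13 G1 cyclins and CDK inhibitors all were negative (median -0.20), and of 77 genes of the cytosolic ribosome 20 were positive and 57 negative (median -0.16). *Pcna*, the sliding clamp of replication, was at 372, 375 and 286 CPM in control and 395, 381 and 218 CPM in activated cells, *Aurkb*, a mitotic kinase gene, at 45.5, 45.2 and 73.2 CPM in control and 52.4, 50.8 and 52.04 CPM in activated cells and *Birc5*, the gene of survivin, at 47.9, 45.7 and 40.7 CPM in control and 52.3, 46.5 and 27.5 CPM in activated cells. For these the replicate 3 value was lower in activated than in control cells, while the other libraries of the conditions were close. Several other lists also held more negative estimates. Transport from the ER to the Golgi had 2 positive and 19 negative, ER folding and degradation 5 and 25, the proteasome 9 and 28 and heat shock 3 and 12. Glycolysis, with 14 positive and 4 negative, and the list around *Txnip*, with 13 and 3, leaned the other way.

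Of 12 genes of the mature β-cell, 10 were positive and 2 negative (median 0.39). *Abcc8* had an interaction of 0.52 and *Ffar1* of 0.79. *Glp1r*, the receptor gene of the incretin GLP-1, was at 131, 145 and 121 CPM in control and 124, 123 and 141 CPM in activated cells. *Ins2* was on the other side, at -0.40, with a smaller excess in activated replicate 3. Other β-cell lists did not lean the same way. Of 15 β-cell transcription factors, 9 were positive and 6 negative (median 0.04), and of 9 tested β-cell markers 4 were positive and 5 negative (median -0.20). Of 18 exocytosis genes, 15 were positive and 3 negative (median 0.22). *Snap25*, a membrane fusion gene of that list, was at 216, 226 and 98.7 CPM in control and 218, 216 and 150.2 CPM in activated cells. Of 22 interferon genes, 12 were positive and 10 negative (median 0.00), and of 21 clock genes 6 were positive and 15 negative (median -0.18). *Pdk1*, the kinase gene that holds back pyruvate dehydrogenase, was at 78.4, 95.7 and 53.3 CPM in control and 65.7, 69.2 and 80.03 CPM in activated cells, an interaction of 0.96, with control replicate 3 the lowest of its condition and activated replicate 3 the highest of its own. *Cebpb*, *Slc3a2*, *Phgdh*, *Yars*, *Aars*, *Pcna*, *Aurkb*, *Birc5*, *Glp1r*, *Snap25* and *Pdk1* were named after their values were seen.

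The number of genes called between the conditions depended on how replicate 3 was treated. *Thada*, the activated gene, was at 28.1, 28.9 and 17.2 CPM in control and 57.3, 56.2 and 49.1 CPM in activated cells, and every activated library was above every control library (p = 0.1 in a two-sided exact permutation, which with 3 libraries against 3 is the lower bound). Its level was lowest in replicate 3 of both conditions. With replicate 3 as a term, 42 of 12516 genes (0.336%) were called between the conditions at an adjusted p under 0.05 and a fold over 1.5 by edgeR's quasi-likelihood test, 31 higher and 11 lower in activated cells. Without that term edgeR called 0 genes, with 101 at an unadjusted p under 0.05. With the replicate number as a block it called 19, all among the 42, and DESeq2 with the replicate 3 term called 32, of which 30 were among the 42. The count was 26 without control replicate 1, 12 without control replicate 2, 68 without control replicate 3, 14, 22 and 67 without activated replicates 1, 2 and 3, and 66 without both replicate 3 libraries. Of the 42 genes, 14 (33.3%) were set apart in replicate 3, where 24.4% of all genes were.

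Some of these 42 genes carried both differences. *Pappa2*, the gene of a protease of insulin-like growth factor binding proteins, was at 4306, 4235 and 1449.5 CPM in control and 2825, 2917 and 909 CPM in activated cells, lower in activated cells and lower in replicate 3, and its condition difference was -0.61 (standard error 0.05, edgeR adjusted p = 3.97e-05). *Agt*, the angiotensinogen gene, was at 30.6, 30.5 and 12.9 CPM in control and 56.2, 58.7 and 30.4 CPM in activated cells, a condition difference of 1.00 (standard error 0.08, edgeR adjusted p = 3.14e-05). *Cartpt*, which encodes a peptide of islets and neurons, was at 10.02, 8.09 and 19.4 CPM in control and 15.4, 16.6 and 45.3 CPM in activated cells, with its highest value in activated replicate 3. *Srl* at 33.7, 34.1 and 29.5 CPM in control and 50.3, 49.9 and 48.01 CPM in activated cells and *Frmd8* at 14.1, 14.3 and 12.4 CPM in control and 25.9, 25.2 and 20.8 CPM in activated cells differed between conditions and little between replicates. *Thada* had a condition difference of 1.15 (standard error 0.09, edgeR adjusted p = 3.97e-05) and an interaction of 0.52, since its decrease in replicate 3 was larger in control cells. These p-values come from the fit with the replicate 3 term, added after the replicate 3 libraries had been seen to stand apart. Without that term, the edgeR adjusted p was 0.999986 for *Pappa2*, *Agt* and *Thada* alike. With the replicate number as a block, it was 0.00172 for *Pappa2* and 0.00041 for *Agt* and *Thada*.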

How the data were processed

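The authors deposited an estimated count, an FPKM value and a TPM value for each gene and library, and all 3 are used as deposited. The submitters' processing notes name Bowtie2, RSEM, DESeq2 and GRCm38, without versions. The authors' fold change and p columns hold their own comparisons and were not used. One gene of the table had its text broken over a second line, and that remainder, which holds no value used here, was skipped.

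Counts were rounded and analysed in R 4.3.3 with edgeR 4.0.16 (limma 3.58.1). Genes were kept by filterByExpr and scaled by TMM. Robust quasi-likelihood fits had terms for condition and replicate 3, with their product for the interaction. Adjusted p-values are Benjamini-Hochberg values over all 12516 genes. DESeq2 1.42.0 was the other tool. The log2 CPM of the set-apart rule used a prior count of 2. The set-apart rule, the edgeR tests of the interaction and the condition and the DESeq2 test of the interaction were tried on simulated counts. The simulation took the spread of replicate 3 to equal that of replicates 1 and 2, so it does not vouch for the interaction calls. Other steps were not simulated.

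Replicate numbers were checked as pairs. The correlation across genes of the deviations of same-number libraries from their condition mean was 0.667, 0.671 and 0.869. It was 0.726 and 0.705 for replicates 1 and 2 across numbers. Replicate 3 enters each condition mean, so these values for replicates 1 and 2 largely carry its difference, and 0.869 is the correlation already given. The differences between replicates 1 and 2 had a correlation of -0.113 across the conditions, so the values do not pair numbers 1 and 2. A fit with the number as a block was run as an alternative.

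Genes were named by a rule. It took the 7 proposed markers, *Thada*, *Ins1* and *Ins2*, and the 12 higher and 12 lower genes that differed most in both conditions among genes of at least 5 CPM. It also took up to 4 set-apart members of each of 37 lists or otherwise the 2 most abundant, the 10 and 6 genes with the lowest p among calls of the interaction and of the condition, and 3 genes on each side of the 1.5-fold limit. The rule named 163 genes, of which a few are not reported here, and 51 more, beside markers of other cells, were named after their values were seen. Members and lists were chosen with earlier results of these data known.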

Additional observations from a re-analysis of the deposited data

Results flagged for a closer look

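The interaction of condition and replicate 3 was called for 871 genes by edgeR (adjusted p under 0.05), and for 52 to 1748 under other settings. It compares 1 replicate 3 library of each condition, both selected on these values, and the spread of replicate 3 was not measured. The genes below were among the 871, as estimates from this pair of libraries. *Kcnj11*, *Nkx2-2*, *Gjd2*, *Hsph1* and *Atf4* were not called with the replicate number as a block. Of 59 named genes called by edgeR, DESeq2 called 28, and it gave no adjusted p for some, among them *Dbp*, *Thada*, *Ociad2*, *Cebpb* and *Dusp5*. Values below are interactions on the log2 scale, positive where the replicate 3 difference was higher in activated cells. The genes are grouped by hand and do not stand for whole lists.

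Named genes linked to the β-cell or to secretion with positive values were *Sez6l* 1.06, *Cplx2* 0.99, *Prlr* 0.89, *Ffar1* 0.79, *Snap25* 0.63, *Insrr* 0.59, *Abcc8* 0.52, *G6pc2* 0.51, *Iapp* 0.42, *Slc30a8* 0.41, *Gjd2* 0.40, *Pcsk1* 0.38, *Unc13a* 0.38, *Glp1r* 0.38 and *Kcnj11* 0.34. Of the same kind with negative values, *Mafa* was at -0.46, *Ins2* at -0.40 and *Nkx2-2* at -0.35.

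Among named genes of metabolism, *Pdk1* was at 0.96, *Lrpprc* at 0.94, *Pfkl* at 0.50, *Slc16a3* at 0.44, *Ldha* at 0.42, *Bnip3* at 0.40 and *Pcx* at 0.39.

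Named genes of the ATF4 pathway and of amino acid supply with negative values were *Cebpb* -1.31, *Eif4ebp1* -0.86, *Ddit3* -0.77, *Yars* -0.56, *Phgdh* -0.52, *Aldh18a1* -0.52, *Slc3a2* -0.50, *Aars* -0.49, *Mthfd2* -0.48, *Cebpg* -0.35, *Asns* -0.32 and *Atf4* -0.27. The ER gene *Syvn1* was at -0.40.

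Among named genes of the cell cycle, *Aurkb* was at -0.68, *Birc5* at -0.64, *Cdkn1a* at -0.62, *Cdk1* at -0.47, *Pcna* at -0.45, *Ccna2* at -0.44 and *Mcm2* at -0.43.

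Of the clock and ERK genes, *Dbp* was at -0.47, *Nr1d1* at -0.45, *Bhlhe40* at 0.38, *Dusp5* at 0.51 and *Dusp4* at -0.42. The others were *Rgs4* at 1.19, *Ociad2* at 1.06, *Glb1l2* at 1.03, *Tm4sf4* at 0.94, *Thada* at 0.52, *Psmd6* at 0.48, *Wipi1* at 0.39 and *Hsph1* at 0.37. *Cebpg*, *Asns*, *Mthfd2*, *Aldh18a1*, *Cdkn1a*, *Cdk1*, *Ccna2* and *Dusp4*, given here alone, were named after their values were seen.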

How the results depend on the processing

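Replicate 3 stood apart by 3060 genes (1558 higher, 1502 lower). A limit of 2-fold gave 1054 (559 higher, 495 lower), since that limit is stricter. Leaving out replicate 1 or 2 of a condition gave from 3009 to 3075 (higher 1507 to 1559, lower 1487 to 1516), and the other scalings, filters and prior count stayed within 1.5 times.

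The interaction count of 871 came to 52 and 149 on log2 FPKM with a pseudocount of 1 and 0.1, to 113 by DESeq2 and to 559 with the replicate block. It ranged from 351 to 1748 when 1 library was left out. It was 1748 and 1442 without control replicates 1 and 2, and 362 and 351 without activated replicates 1 and 2. Where a condition keeps 1 other library, its spread is taken from the rest.

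The condition count of 42 came to 18 and 24 on log2 FPKM with a pseudocount of 1 and 0.1, to 19 with the block, to 0 without the replicate 3 term by edgeR (101 at an unadjusted p under 0.05) and to 66 without both replicate 3 libraries. It ranged from 12 to 68 when 1 library was left out, with 26, 12 and 68 without control replicates 1, 2 and 3 and 14, 22 and 67 without activated replicates 1, 2 and 3. For these counts the cause was not tested.

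The block was run for the interaction and the condition. Without replicate 3 of a condition, the set-apart rule and the interaction cannot be computed. Of 2559 values of named genes under the alternatives, 2207 stayed within the residual standard deviation of the main estimate and 352 moved further. The sign of the difference reversed for 0 set-apart genes. The log2 ratio of the mean *Thada* CPM of the conditions, with no replicate 3 term, was 1.13, and 1.16 as a ratio to *Actb*.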

Other observations

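Several lists that the report does not describe are given here, beside 12.4% higher and 12% lower over all genes. Of 15 tested genes of actin and of SRF and YAP targets, 2 were higher, 2 lower and 11 neither, with a median log2 difference of -0.09 against 0.00 over all genes. *Actb*, often used as a reference gene, was at 534, 505 and 183 CPM in control and 553, 578 and 192 CPM in activated cells, and replicate 3 was below all other libraries in both conditions. *Flna* (-0.76) was lower, and the calponin genes *Cnn3* at 41.5, 41.7 and 85.7 CPM in control and 42.5, 43.9 and 87.5 CPM in activated cells and *Cnn2* (2.08) were higher. Of 15 genes of matrix and integrins, 1 was higher, 2 lower and 12 neither (median -0.17, and -0.08 on log2 FPKM with a pseudocount of 1). *Col18a1* (1.11) was the higher one, and *Col4a2*, beside *Fndc1*, was lower from at most 1.64 CPM. Of 10 junction genes, 1 was higher, 3 lower and 6 neither (median -0.43). *Cdh1*, the gene of E-cadherin, was at 4.92, 4.36 and 16.7 CPM in control and 6.81, 6.27 and 19.2 CPM in activated cells, higher in replicate 3, while *Gjd2*, which encodes the connexin that couples β-cells, was at 64.8, 65.7 and 20.4 CPM in control and 71.96, 70.4 and 29.2 CPM in activated cells, lower in replicate 3. *Tjp1* (-0.84) was lower too.

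Of 23 antioxidant and glutathione genes, 1 was higher, 4 lower and 18 neither, with a median of -0.00 that changed sign in 2 of the other scalings and filters. *Gclc*, which encodes the first enzyme of glutathione synthesis, was at 37.02, 38.8 and 15.9 CPM in control and 39.2, 39.8 and 16.8 CPM in activated cells and *Pgd*, of the pentose phosphate pathway, at 30.3, 28.1 and 12.6 CPM in control and 33.3, 31.6 and 15.1 CPM in activated cells, both lower, while catalase (*Cat*, 0.88) was higher. Of 15 heat shock genes, 1 was higher, 1 lower and 13 neither (median -0.11), with *Hsph1* (-1.24) lower and *Hspe1* (0.70) higher. Of 24 lysosome genes, 0 were higher, 3 lower and 21 neither (median -0.09), with *Ctsa* (-0.67) and *Gla* (-0.66) among the lower. Of 16 autophagy genes, 2 were higher, 1 lower and 13 neither (median 0.18). *Gabarapl1* was at 116, 122 and 286 CPM in control and 126, 123 and 267 CPM in activated cells, higher in replicate 3 and also known as a FOXO target, *Wipi1* was at 374, 349.6 and 133 CPM in control and 269, 273 and 130.0 CPM in activated cells, lower, and *Atg14* (0.82) was higher. *Slc2a1*, the gene of the glucose transporter GLUT1 and named after its values were seen, was at 72.3, 73.6 and 31.2 CPM in control and 55.9, 64.3 and 25.4 CPM in activated cells, lower in both replicate 3 libraries.

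Estimated counts divided by FPKM give a length for each gene in each library that depends on which transcripts the authors' counting used. Among 8283 genes with at least 50 counts and 5 FPKM in every library, limits chosen after the data were seen, this length differed by more than 1.1-fold between replicate 3 and the others in the same direction in both conditions for 158 genes, 68 with a longer and 90 with a shorter length, and in opposite directions for 2. Between replicates 1 and 2 it did so for 3 genes. For *Rasgrf1*, an activator of RAS, the ratio of replicate 3 to the others was 1.62 in control and 1.82 in activated cells. The ratios were 0.570 and 0.631 for *Hivep3*, 0.632 and 0.686 for *Camta1*, and 0.681 and 0.716 for *Wdr33*. The levels of these 4 genes, named after their values were seen, were not set apart in replicate 3, with log2 differences of 0.05, 0.10, 0.38 and -0.16.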
